A study of Mus musculus with 3 samples.

Results

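Oligodendrocyte precursor cells, the dividing glia from which myelinating oligodendrocytes arise, were 80 of the 1876 cells used here from 3 single-cell libraries of the mouse dentate gyrus. A cell was counted as a precursor when it had UMIs (unique molecular identifiers, each standing for 1 captured RNA molecule) of at least 3 of 10 precursor markers, and of fewer than 3 of 8 genes of mature oligodendrocytes. The precursor markers were Olig1, Pdgfra, Cspg4, Matn4, Lhfpl3, Neu4, Gpr17, Cacng4, Sox10 and Tnr. The mature genes were Mog, Mag, Cldn11, Mobp, Mal, Ermn, Opalin and Ugt8a. Cells used had at least 200 detected genes and less than 10% of their UMIs from mitochondrially encoded genes. The deposited tables hold 8105 barcodes, so most barcodes lay over the mitochondrial limit. Because the rule reads expression, the levels of these 18 genes in the precursors describe the choice and support nothing.

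The sample labels give the strain hGFAP-eGFP for all 3 libraries, whereas the series text speaks of WT mice and names the reporter for the aged animals only. The strain is named for a green fluorescent reporter under the human GFAP promoter, which is active in astrocytes and neural stem cells. The control library was made from 8-week-old animals in standard housing. The runner library came from their littermates, which had a running wheel in the cage for 12 days. The aged library came from 14-month-old animals without running. Dentate gyri were dissected and dissociated with trypsin, and the 3′ ends of polyadenylated RNA were captured in 10x droplets. How many animals went into each library, and their sex, was not given in the labels. Each condition was thus 1 library, so condition and library cannot be told apart, no test between conditions is possible, and every interval below is a 95% interval for counting error only.

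In the adult brain, precursors keep dividing slowly, tile the tissue evenly and receive synapses from neurons. They depend on platelet-derived growth factor acting on the receptor Pdgfra, and carry the proteoglycan Cspg4 (NG2). When a precursor commits to differentiation it loses Pdgfra and Cspg4, passes through a stage marked by Gpr17, Bcas1 and the kinase Fyn, then by Enpp6, and finally makes myelin proteins such as Mbp.

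Among the precursors, 23 were in the control library, 36 in the runner library and 21 in the aged library. The whole libraries held 2330698, 3808360 and 2537567 UMIs over all barcodes. Precursors were somewhat deeper than the other cells of their library, with medians of 1730, 1991 and 1932 UMIs per cell in control, runner and aged against 1426, 1740 and 1385. Their summed UMIs were 43353, 73208 and 41975, and levels below are UMIs per 1000000 of these sums (CPM). Median mitochondrial percentages in precursors were 4.98, 3.13 and 4.39, lowest in the runner library. Libraries shared 8 to 10 barcodes pairwise, and none of these was a precursor.

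Few cells lay next to the limits of the rule. Of the cells with fewer than 3 mature genes, 1501 had no precursor marker, 84 had 1 and 6 had 2. Just inside the threshold, 4 cells had 3 markers and 12 had 4, and the remaining 64 had between 5 and 9. On the mature side, 56 precursors had none of the 8 genes, 19 had 1 and 5 had 2. Just outside, 5 cells with 3 or more precursor markers had 3 mature genes and 6 had more.

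Pdgfra, the receptor that gives the cells their identity, and Tnr, which encodes the matrix glycoprotein tenascin-R, are the markers whose upstream sequence is shown, because the annotation placed no exon in the 250 bases before their start. Both lie on the plus strand of GRCm38.p6 in RefSeq, at chr5:75152001-75152250 for Pdgfra and chr1:159523519-159523768 for Tnr. The motifs CAGCTG, an E-box of the kind bound by basic helix-loop-helix factors such as Olig2, and ACAAAG, a core bound by Sox factors, were searched on both strands. They share no overlap. Capitals mark a match.

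Pdgfra: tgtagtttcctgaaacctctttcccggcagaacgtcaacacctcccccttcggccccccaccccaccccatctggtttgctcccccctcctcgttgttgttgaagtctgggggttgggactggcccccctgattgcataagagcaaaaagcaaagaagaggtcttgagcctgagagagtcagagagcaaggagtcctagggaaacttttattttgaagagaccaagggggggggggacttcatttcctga
Tnr: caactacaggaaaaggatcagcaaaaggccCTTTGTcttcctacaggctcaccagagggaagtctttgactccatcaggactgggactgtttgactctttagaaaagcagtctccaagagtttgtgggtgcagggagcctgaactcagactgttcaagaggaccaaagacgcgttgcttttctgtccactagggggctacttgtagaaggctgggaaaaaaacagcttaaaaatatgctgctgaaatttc

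The Tnr window held 1 match of ACAAAG, on the reverse strand, and the Pdgfra window held none of either motif. Among all 32851 promoter windows of this length, 16.5% held ACAAAG and 13.0% held CAGCTG. The Pdgfra window was 54.4% GC and the Tnr window 46.8%.

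Of the surface markers in the rule, Pdgfra was found in most precursors of every library and Cspg4 in fewer. Pdgfra (chr5:75152292-75198215) had 41 UMIs in 18 of 23 control precursors, 46 in 24 of 36 runner precursors and 28 in 13 of 21 aged precursors, or 946, 628 and 667 CPM. Cspg4 had 9, 14 and 11 UMIs, in 7, 10 and 10 cells. Across the libraries together Pdgfra was detected in 68.8% of precursors and in 0.379% of microglia, immune cells that lack it, whose median depth was 1408 to 1582 UMIs. Cspg4 was detected in 33.8% of precursors and in no microglial cell.

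Transcription factors and secreted markers followed the same pattern. Olig1, a factor of the whole lineage, had 52, 96 and 45 UMIs in 20, 31 and 19 cells of control, runner and aged, or 1199, 1311 and 1072 CPM. Sox10, another factor of the whole lineage, stood at 346, 341 and 524 CPM. Matn4, a matrilin of the extracellular matrix, had 39, 64 and 37 UMIs and nearly the same level in each library (900, 874 and 881 CPM). Tnr stood at 1038, 710 and 905 CPM. The membrane proteins Lhfpl3 (646, 492 and 739 CPM) and Cacng4 (438, 464 and 667 CPM) and the sialidase Neu4 (761, 710 and 500 CPM) completed the set.

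Gpr17, the receptor of the committing stage, had 30 UMIs in 16 of 23 control precursors, 29 in 13 of 36 runner precursors and 35 in 13 of 21 aged precursors. Its runner level was the lowest, 396 CPM against 692 in control and 834 in aged. After every cell was thinned to 1000 UMIs, Gpr17 was seen in 15 of 23, 9 of 33 and 9 of 18 precursors. Pdgfra and Gpr17 were both detected in 11 control, 6 runner and 8 aged cells, so the 2 genes marked overlapping sets. No marker of the rule was past 2-fold in either comparison with control. The selection makes these ratios a description.

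**Figure D1:**
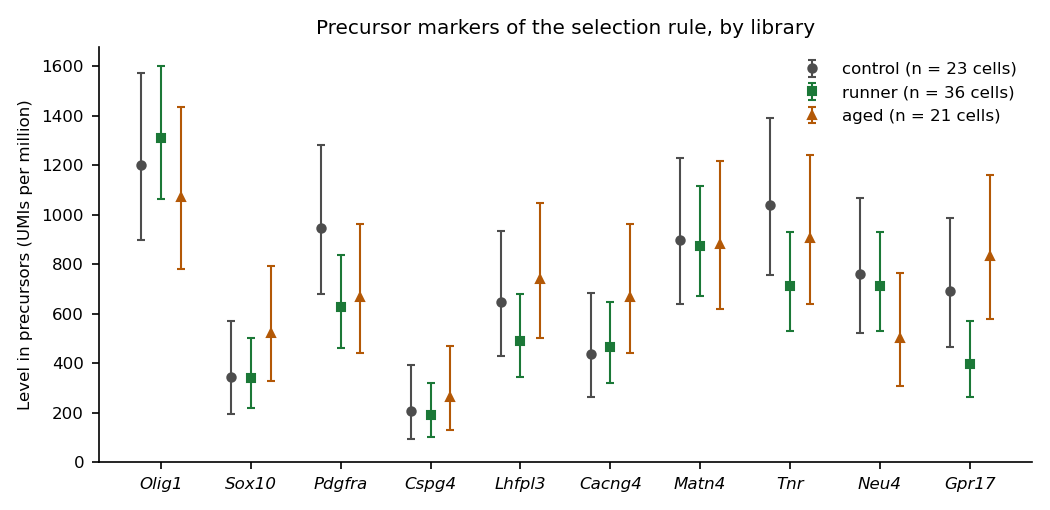
Level of each of the 10 precursor markers (CPM, linear axis) in the summed precursors of the control, runner and aged libraries. Points are 1 library each and bars are exact 95% Poisson intervals; Matn4 sits at 874 to 900 in all 3, while Gpr17 runs from 396 in runner to 834 in aged.

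Genes outside the rule were ranked by how far they stood above all other cells. The fold here is CPM plus 20 in precursors over CPM plus 20 in all other cells, and the value given is the smallest over the 3 libraries. These cells were grouped on related genes, so no test is given. Of 815 genes detected in at least 25% of precursors in every library, 128 were at least 2-fold higher than in the other cells in each library and 12 at least 2-fold lower. Cdo1, which encodes cysteine dioxygenase, led at 16.5-fold, with 577, 396 and 619 CPM in control, runner and aged precursors against 3.54 to 5.21 CPM in the other cells.

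Of the 25 leading genes, 8 were on the list of other precursor genes, which held 18 of the 815, and 2 (Vcan and Ptprz1) on the list of matrix and proteoglycan genes, which held 6. The genes described here were chosen after their values were seen. Xylt1, a xylosyltransferase that starts glycosaminoglycan chains, stood 13.0-fold higher, and Ugdh, which makes the UDP-glucuronate used in those chains, 6.21-fold. Sulf2, a sulfatase that trims heparan sulfate outside the cell, stood 9.59-fold higher and Vcan, the proteoglycan versican, 11.0-fold. Ptprz1, the receptor phosphatase that carries chondroitin sulfate and binds pleiotrophin, was detected in 79 of the 80 cells, at 2099, 2117 and 2335 CPM. Astrocytes also held Ptprz1 (1472 CPM in control), so its fold over astrocytes was smaller than its 8.61-fold over all other cells.

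The adhesion list held 13 of the 815 genes and 1 of the leading genes, Cntn1. Nxph1, a secreted ligand of neurexins, stood 14.8-fold higher, with 12, 40 and 21 UMIs in the precursors and none in the astrocytes of any library. Pcdh15, a cadherin, was 12.2-fold higher, Brinp3 9.99-fold and the immunoglobulin-superfamily adhesion protein Cntn1 7.20-fold. The calcium-binding proteins S100a1 and S100a16 were 6.84-fold and 6.46-fold higher, and S100a1 was detected in 100%, 91.7% and 85.7% of precursors. Other glia held them too: S100a16 was 1.55-fold to 1.70-fold higher than in mature oligodendrocytes, and S100a1 2.12-fold to 2.23-fold higher than in astrocytes. Of the 25 leading genes, 23 were also at least 2-fold higher than in mature oligodendrocytes in every library, 24 than in astrocytes and 25 than in microglia. Over all 815 genes these numbers were 175, 131 and 286. Microglia were 792 of the 1796 other cells, so choosing the 25 by their fold over other cells nearly fixes the count for microglia. At the low end stood genes of microglia, with 1, 3 and 2 UMIs of the complement gene C1qa, and Trf, the transferrin of mature oligodendrocytes, with 2 UMIs in all.

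Few precursors held several proliferation genes. At least 3 genes of a list of 30 proliferation genes were detected in 0 of 23 control, 0 of 36 runner and 1 of 21 aged precursors. Counts of 0 allow shares of up to 13.0% in control and 8.33% in runner by a limit of 3 counts, and 14.8% and 9.74% by the exact interval. The criterion is stricter in aged, since 27 of the 30 genes are listed in the control table, 30 in the runner table and 14 in the aged table. At least 1 of the genes was detected in 39.1%, 41.7% and 23.8% of control, runner and aged precursors. At least 3 of the genes were detected in 2.65%, 3.00% and 1.34% of the other cells. Mki67, a protein of cycling cells, had 1, 1 and 3 UMIs in the precursors.

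Inside the precursors, 7 cells stood apart by Fyn (chr10:39368855-39565381), the Src-family kinase that drives process growth and early myelin protein synthesis. They held 6 to 19 Fyn UMIs each, while the other 73 precursors held at most 2, and only 13 of these had any. A limit of 5 UMIs in this gap was set after the values were seen, so all that follows on these cells is a description. There were 2 Fyn-rich cells in the control library, 4 in the runner library and 1 in the aged library, or 8.70% (1.07 to 28.0), 11.1% (3.11 to 26.1) and 4.76% (0.12 to 23.8) of precursors. These intervals overlap widely. The 1 aged cell was also the only precursor marked by the doublet caller Scrublet, so whether it was a single cell is uncertain. The Fyn-rich cells were the deeper ones, with 2681 to 5088 UMIs (median 3286) against 534 to 3092 (median 1796), and the part of depth in their profile was not tested.

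Among 1550 genes measured with at least 20 UMIs over both sets, 202 (13.0%) were at least 2-fold higher in the Fyn-rich cells and 354 (22.8%) at 0.5-fold or less. The smaller set had 24417 UMIs against 134119, so the lower ratios include genes with few UMIs or none in it. Of 19 myelin genes outside the rule 7 were measured, 5 of them at least 2-fold higher and 1 at 0.5-fold or less. Over the summed cells, Cnp and Mbp, proteins of the myelin sheath, stood at ratios of 12.6 (8.34 to 19.3) and 9.92 (6.50 to 15.3) to the other precursors, and Tubb4a, the tubulin of oligodendrocytes, at 11.6. Sirt2, a deacetylase abundant in this lineage, had 7 and 22 UMIs in the 2 control cells, 11, 43, 9 and 17 in the 4 runner cells and 18 in the aged cell. The other 73 precursors held 0 to 7 Sirt2 UMIs each, so the ranges met at 7. Its summed level was 5201 CPM against 716, a ratio of 7.27 (5.53 to 9.57).

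Of 22 genes of committed precursors 9 were measured, all higher and 8 at least 2-fold higher. Fyn is on this list and was used to choose the cells, so its place in both counts was fixed beforehand. Gpr17 was detected in each of the 7 cells with 1 to 9 UMIs, and Bcas1 in each with 1 to 7. As a marker of the rule, Gpr17 also helped to choose these cells, so its presence is a description. Enpp6, a marker of newly forming oligodendrocytes, had 14 UMIs spread over 6 of the 7 cells and 0 UMIs in the other 73, which makes it at least 25.6-fold higher against a floor of 3 UMIs over the set. Bmp4 and Mycl, a secreted morphogen and a Myc-family factor, had ratios of 13.7 and 24.7. Of the 8 mature genes that the rule limits, Mog, Mobp, Mal, Ermn and Opalin had 0 UMIs in these cells, and Cldn11, a tight junction protein of myelin, had 14.

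Of 30 other precursor genes 21 were measured, 17 of them lower in the Fyn-rich cells, 14 at 0.5-fold or less and 1 at least 2-fold higher. Pdgfra had 0 UMIs in the 7 cells and 115 in the other 73 (857 CPM), 6.98-fold lower against the same floor. The exact interval of its ratio, which reaches smaller folds, was 0 to 0.179. Cntn1 and Ccnd1, a cyclin of precursors, were likewise at 0, by that floor 4.67-fold and 3.64-fold lower. Their exact ratio intervals were 0 to 0.270 and 0 to 0.348. Serpine2, a secreted protease inhibitor, had 1 UMI against 289, a ratio of 0.019 (0.00048 to 0.107). Ptn and Apoe, a growth factor and an apolipoprotein, had ratios of 0.113 and 0.068. Olig1, at 655 against 1320 CPM, and Tnr, at 1352 against 761 CPM, were present in both sets, as was Ptprz1, at 655 against 2446 CPM.

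**Figure D2:**
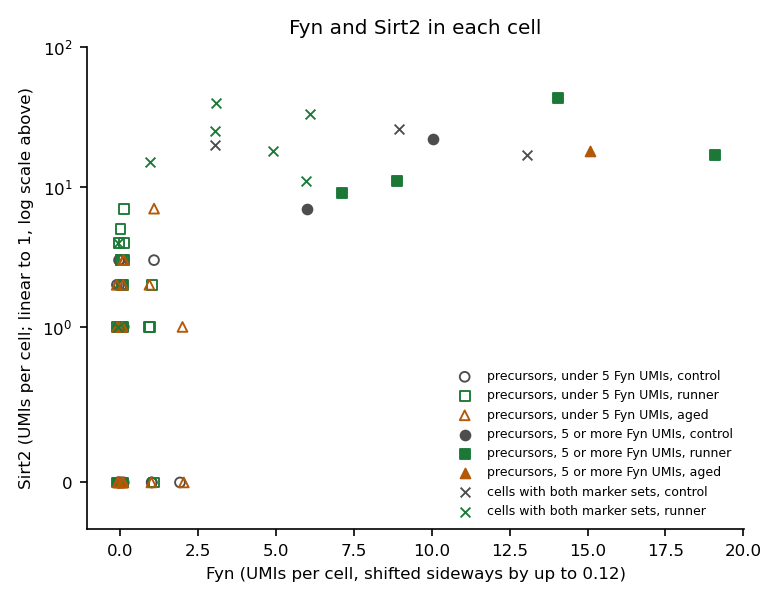
UMIs of Fyn (horizontal, linear) and Sirt2 (vertical, linear to 1 and logarithmic above) in each of the 80 precursors and the 11 cells with both marker sets. The 7 filled symbols are precursors with 6 to 19 Fyn UMIs and 7 to 43 Sirt2 UMIs; the 73 open symbols hold at most 2 Fyn and 7 Sirt2 UMIs.

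Another 11 cells, 3 in control, 8 in runner and 0 in aged, had at least 3 markers of both kinds and were left out of the precursors by the rule. They too had 0 UMIs of Pdgfra and Cspg4. Their levels of Enpp6 (1212 CPM), the Wnt-pathway factor Tcf7l2 (1263 CPM) and Nfasc, an adhesion protein of the axon-glia junction (1364 CPM), were above those of the Fyn-rich precursors (573, 246 and 246 CPM) and of the mature cells (44.2, 36.4 and 161 CPM). Fyn, at 1238 CPM, was below the 3276 CPM of the Fyn-rich precursors, and above the 18.2 CPM of mature cells. Mbp (10481 CPM) and Cnp (5556 CPM) were near the mature levels of 9179 and 5661 CPM. In the aged library, 0 of 68 cells of the lineage were of this kind, which allows a share of up to 4.41% by a limit of 3 counts and 5.28% by the exact interval. The doublet caller Scrublet called 0 of the 11, and whether a barcode of this kind held 1 cell or 2 was not tested further.

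**Figure D3:**
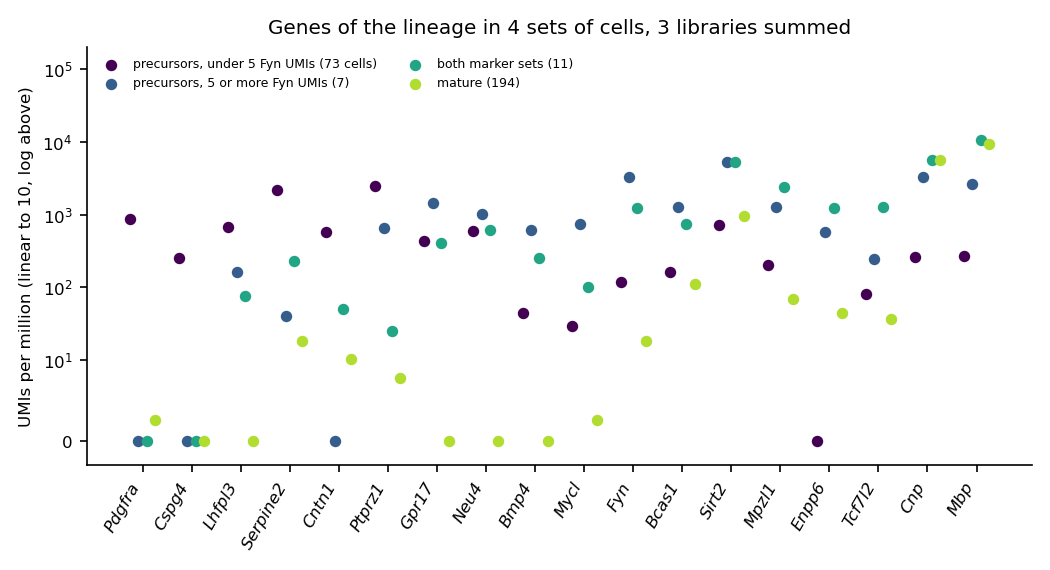
Levels of 18 genes (CPM, linear to 10 and logarithmic above) in 73 precursors with under 5 Fyn UMIs, 7 precursors with more, 11 cells with both marker sets and 194 mature oligodendrocytes, libraries summed. Pdgfra is at 857 in the first set and 0 in the second; Enpp6, Tcf7l2 and Mpzl1 are highest in the cells with both marker sets; Cnp runs from 261 in the first set to 5661 in mature cells.

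Precursors made up a similar share of cells in each library within counting error. They were 4.47% (2.86 to 6.64) of control, 3.72% (2.62 to 5.11) of runner and 5.34% (3.34 to 8.05) of aged cells. Runner minus control was -0.76 points (-3.14 to 1.26), and aged minus control 0.87 points (-1.95 to 3.93). After thinning each cell to 1000 UMIs the shares were 5.38%, 3.60% and 6.34% of the cells deep enough, so the order of the libraries held. These intervals leave room for a change of several points either way.

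Set against the lineage alone, precursors were 35.4% of 65 control, 23.7% of 152 runner and 30.9% of 68 aged lineage cells. The differences from control were -11.7 points (-25.3 to 1.13) in runner and -4.50 points (-20.0 to 11.3) in aged. Mature oligodendrocytes were the larger part of the lineage, at 7.59%, 11.1% and 12.0% of all cells. Among the 1789, 1990 and 1877 barcodes with enough genes but over the mitochondrial limit, 8, 12 and 15 met the marker rule. In such shares the survival of a cell type through dissociation cannot be told apart from its number in the tissue.

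The comparison of runner with control asked how voluntary running changes the cells of the dentate gyrus. In the precursors, Cd9, Lims2 and Ntm were higher in the runner library, and the metallothioneins Mt1 and Mt2, the glutamate transporter Slc1a3 and the growth factor Ptn were lower. Genes with at least 20 UMIs in both libraries together numbered 1089. A CPM ratio of 2 or more was found for 67 of them (6.15%) and of 0.5 or less for 40 (3.67%), together 9.83%. The median log2 ratio over these genes was 0.04. Ratios in all other cells of the same libraries are given beside those of the named genes.

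Cd9 (chr6:125460266-125494791), a tetraspanin that organises membrane proteins, had 67 UMIs in 18 of 23 control precursors, 284 in 35 of 36 runner precursors and 70 in 13 of 21 aged precursors. At 3879 CPM the runner library was above control (1545) and aged (1668). The ratio of runner to control was 2.51 (1.92 to 3.33), against 1.42 in all other cells. It was 1.79 (1.32 to 2.47) in mature oligodendrocytes, 1.97 (1.40 to 2.83) in astrocytes and 1.48 (1.30 to 1.68) in microglia. Fyn-rich cells held much Cd9, 4 to 52 UMIs each, yet without them the precursor ratio was 2.68 (1.90 to 3.87). Cd81, a tetraspanin partner of Cd9, had 122, 283 and 146 UMIs and a runner ratio of 1.37 (1.11 to 1.71) against 1.09.

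Lims2, an adapter at integrin adhesions and one of the leading precursor genes, had 24, 86 and 20 UMIs in control, runner and aged, a runner ratio of 2.12 (1.34 to 3.49) against 0.82 in other cells. Ntm, the immunoglobulin adhesion protein neurotrimin, had 13, 51 and 34 UMIs, a ratio of 2.32 (1.25 to 4.66) against 1.25. Wscd1 had 4, 24 and 16 UMIs, a ratio of 3.55 against 1.58. Ntm and Wscd1 were also among the highest in the aged library, and both comparisons share the control precursors.

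Ube2b, a ubiquitin-conjugating enzyme (19 UMIs against 2, ratio 5.63, 1.36 to 49.8), the kinase Nme1 (39 against 9, ratio 2.57) and the peptidase Pgpep1 (19 against 1, ratio 11.3, 1.79 to 468) were further named genes. In other cells their ratios were 1.15, 1.32 and 3.17. With cells holding 3 or more markers of another class left out, the intervals of Ube2b (4.12, 0.947 to 37.4), Nme1 (2.02, 0.845 to 5.55) and Wscd1 (2.21, 0.704 to 9.15) held 1. Tmsb4x, an actin-binding peptide, had 129 and 326 UMIs, a ratio of 1.50 (1.22 to 1.85) that was 1.24 (0.946 to 1.64) without the Fyn-rich cells and 0.909 in other cells. Gm1821 (chr14:46084028-46085000), annotated as a processed pseudogene, had the ratio 4.18 (2.50 to 7.41). It was also higher in other cells (2.73), and since it may share reads with near-identical copies its count is uncertain.

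Metallothioneins, metal-binding proteins of the cell's zinc and stress response, led the lower genes. Mt2 (chr8:94172664-94173568) had 35 UMIs in 12 control cells, 12 in 6 runner cells and 10 in 7 aged cells, and a runner ratio of 0.203 (0.096 to 0.401) against 0.46 in other cells. Mt1 had 74, 51 and 30 UMIs, a ratio of 0.408 (0.280 to 0.591) against 0.57. By class, the runner ratio of Mt1 was 0.450 (0.363 to 0.560) in mature oligodendrocytes, 0.697 in astrocytes and 0.741 in microglia. That of Mt2 was 0.599 (0.272 to 1.42), 0.528 and 0.633 in the same classes. Slc1a3, a glutamate transporter also strong in astrocytes, had 24, 13 and 8 UMIs and a ratio of 0.321 (0.150 to 0.656) against 0.964. A single control cell bears on these genes. It held 9 of 12 astrocyte markers, and without it the runner ratios were 0.658 (0.430 to 1.01) for Mt1, 0.317 (0.142 to 0.675) for Mt2 and 0.481 (0.211 to 1.08) for Slc1a3.

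Astrocyte markers as a list were lower in both libraries too. Their summed level in precursors was 2030 CPM in control, 997 in runner and 762 in aged, against 16118 to 18364 in the astrocytes themselves. UMIs were found for 10 of the 12 markers in control, 9 in runner and 5 in aged precursors. Agt and Aldh1l1 were at 0 in control, Gja1, Agt and Aldh1l1 in runner, and Aqp4, Gja1, Slc4a4, Mlc1, Fgfr3, Aldh1l1 and S1pr1 in aged. Neuron markers summed to 1176, 669 and 643 CPM and microglia markers to 300, 437 and 238 CPM. The part of these cells or of their free RNA in the metallothionein and transporter ratios was not tested beyond leaving that cell out.

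Ptn, the pleiotrophin ligand of Ptprz1, had 146 UMIs in 21 of 23 control, 147 in 33 of 36 runner and 103 in 21 of 21 aged precursors. Its runner ratio was 0.596 (0.471 to 0.755), and in other cells 0.723. Camk2a (15 against 5 UMIs) and Cttnbp2 (15 against 6), both genes of neuronal synapses, stood at 0.197 and 0.237. In other cells Camk2a was also lower (0.600) and Cttnbp2 was higher (1.77). Cisd1, Ly6h and Sdf2l1 were also among the lowest genes, at 0.343, 0.395 and 0.333, against 1.15, 1.15 and 0.786 in other cells. The interval of Sdf2l1 (0.130 to 0.801) held 1 without the deepest cell of each library, and without the Fyn-rich cells.

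**Figure D4:**
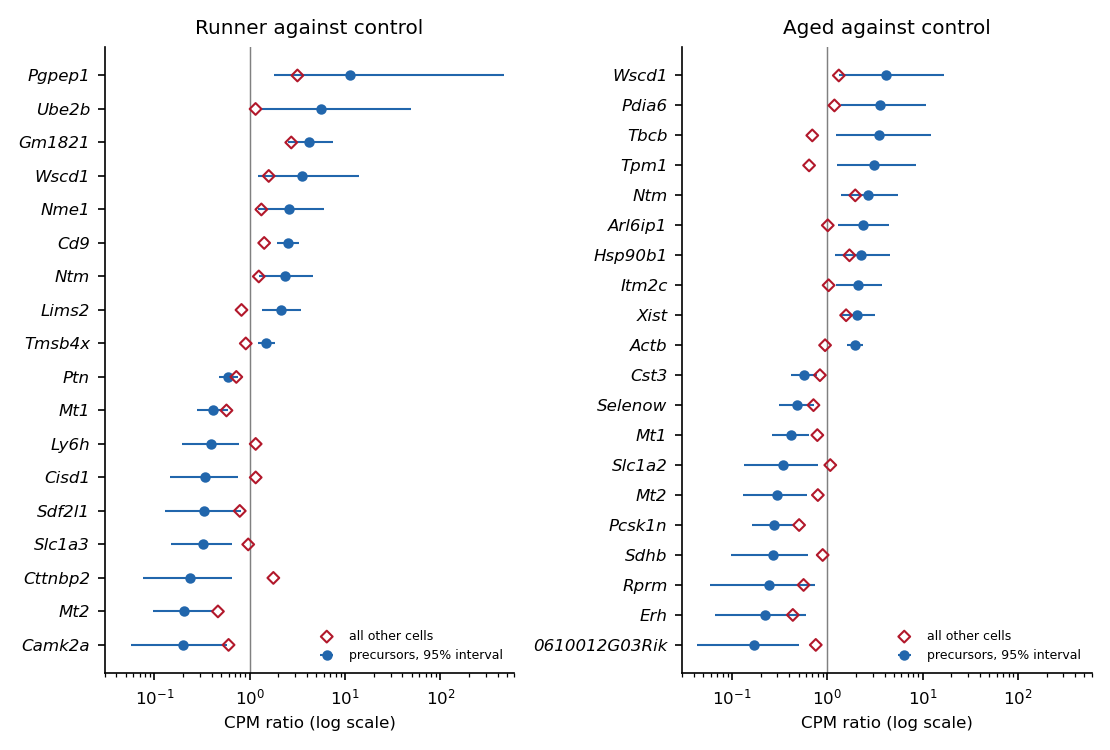
CPM ratio (log axis) of named genes among the 10 highest and 10 lowest for runner against control and aged against control in precursors, with exact 95% intervals for counting error, and open diamonds for all other cells. Cd9 and Lims2 in runner and Actb in aged lie to the right of their diamonds; Mt1 and Mt2 lie to the left of 1 in both panels, which share the control library.

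By list, the genes of the lineage went different ways in the runner precursors, and 586 of all 1089 genes were higher. The 10 markers of the rule, given as a description, had a median log2 ratio of -0.13, with 2 higher and 8 lower. Of 30 other precursor genes 18 were measured, 13 higher and 5 lower, with a median log2 ratio of 0.27 and 0 past 2-fold. Genes of committed precursors had 8 measured of 22, 6 of them higher, with a median of 0.55 and Lims2 alone past 2-fold, where the background was 9.83%. Among them Sirt2 had 52 and 129 UMIs, a ratio of 1.47 (1.06 to 2.07), and Fyn 21 and 53 (1.49, 0.886 to 2.61). Of the Fyn UMIs, 9, 14, 7 and 19 came from the 4 Fyn-rich runner cells, and 6 and 10 from the 2 control ones. Of the Sirt2 UMIs, the same cells held 11, 43, 9 and 17 in runner, and 7 and 22 in control. All 6 measured myelin genes outside the rule were higher, with a median of 0.46, for example Cnp at 1.63 (1.02 to 2.70) and Mbp at 1.25 (0.772 to 2.08). Without the Fyn-rich cells, 5 of them were still measured and their median was -0.01. In mature oligodendrocytes the committed and myelin lists had medians of 0.37 over 6 and 0.23 over 19, and in all other cells of 0.09 over 17 and 0.82 over 19.

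Genes that hold precursors back from differentiation were split. Of 23 genes on the list of Notch, Id, Hes and other brakes, 6 were measured, 2 higher and 4 lower. Their median log2 ratio was -0.39, and 2 were past 2-fold downward. Hes5, a Notch target, had 13 and 9 UMIs (0.410, 0.155 to 1.04). Sox11, which is also on the list of neuroblast (immature neuron) markers, had 12 and 10 (0.493, 0.191 to 1.25). Both intervals hold 1. Once cells with 3 or more markers of another class were left out, 3 of these genes were still measured and their median was 0.34. Growth factor genes had 3 of 26 measured, all lower, Ptn with Mdk (0.646) and the neurotrophin receptor Ntrk2 (0.740). The intervals of Mdk and Ntrk2 hold 1. The median of this list was -0.64 in precursors, and -0.22 over 20 in all other cells. In mature oligodendrocytes, microglia and astrocytes it was -0.15, -0.39 and -0.34. Glycolysis had a median of 0.44 over 8 genes, led by Aldoa with 13 and 48 UMIs (2.19, 1.17 to 4.40). Mitochondrially encoded genes had a median of -0.46, beside the mitochondrial percentages given above, which the cell filter also limits. Their median was -0.44 in all other cells, and -0.54, -0.67 and -0.38 in mature oligodendrocytes, microglia and astrocytes.

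Lists whose median lay near that of all genes were matrix genes (0.13 over 8), transmitter receptors and channels (-0.06 over 3), adhesion (0.02 over 13), cytoskeleton (0.06 over 19), translation (0.07 over 16) and ribosomal proteins (-0.14 over 81). The adhesion list nonetheless held 2 genes past 2-fold, Ntm and Cd9, and its median was 0.27 with each cell weighted the same and 0.19 without the control cell richest in astrocyte markers. Among the receptors, Gria2, an AMPA receptor subunit through which precursors hear neurons, had 32, 52 and 40 UMIs and a runner ratio of 0.962 (0.608 to 1.54). Dissociation stress genes had a median of 0.08 over 15, with 9 higher and 6 lower. Of them 2 were at least 2-fold higher and 1 at 0.5-fold or less, together 20%, where the background was 9.83%. Fos stood at 0.693 (0.541 to 0.889) and Jun at 0.996. Cholesterol synthesis, proliferation and senescence lists had no measured member at this depth.

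The comparison of aged with control asked what differs between young adult and middle-aged mice. In aged precursors Actb, Ntm and Xist were higher, and Pcsk1n, Mt1, Mt2 and Slc1a2 were lower. Of 720 genes measured, 24 (3.33%) had a ratio of 2 or more and 37 (5.14%) of 0.5 or less, together 8.47%. The median log2 ratio over them was -0.09. With median-ratio size factors in place of CPM that median was 0.00 and 51.6% of the genes past 2-fold were higher, against 39.3% on the CPM scale.

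Actb (chr5:142903115-142906754), cytoplasmic actin, had 157 UMIs in 23 control, 236 in 34 runner and 299 in 20 aged precursors. The aged ratio was 1.97 (1.62 to 2.40), against 0.95 in other cells. However, 122 of the 299 UMIs came from the 1 Fyn-rich aged cell, the deepest of the library with 5088 UMIs. Without Fyn-rich cells the ratio was 1.27 (1.01 to 1.60). The same cell was the only precursor that a doublet caller marked.

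Ntm had an aged ratio of 2.70 (1.39 to 5.58), against 1.97 in other cells. Xist, the noncoding RNA of the inactive X chromosome in females, had 36 UMIs in 7 of 23 control, 60 in 12 of 36 runner and 72 in 14 of 21 aged precursors. Its aged ratio was 2.07 (1.37 to 3.17) and that of other cells 1.58. Xist had UMIs in each library, and since the labels give no sex, a different mix of sexes cannot be told apart from age. Without cells holding 3 or more markers of another class its ratio was 1.55 (0.998 to 2.44). A pair of protein-folding genes of the endoplasmic reticulum was among the highest, Pdia6 with 6 and 21 UMIs (3.61, against 1.19 in other cells) and Hsp90b1 with 15 and 33 (2.27, against 1.71). Cytoskeletal genes Tpm1 (7 and 21 UMIs) and Tbcb (3.51), together with Wscd1 (4.13), Arl6ip1 (2.37) and Itm2c (2.11), completed the 10 highest. In other cells these ratios were 0.645, 0.697, 1.32, 1.01 and 1.03. With cells of other markers left out, the intervals of Tpm1, Wscd1 (2.95, 0.912 to 12.4), Arl6ip1 (1.75, 0.887 to 3.62) and Itm2c (1.61, 0.781 to 3.45) held 1.

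Pcsk1n, a secretory granule peptide precursor, had 83 UMIs in 22 of 23 control, 141 in 33 of 36 runner and 22 in 14 of 21 aged precursors. At 524 CPM the aged library was below control (1915) and runner (1926), which were alike. The aged ratio was 0.274 (0.163 to 0.442), and that in other cells was 0.51. Across the alternatives the Pcsk1n ratio stayed between 0.265 and 0.297.

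Mt1 and Mt2 had aged ratios of 0.419 (0.264 to 0.648) and 0.295 (0.130 to 0.609), and 0.675 (0.409 to 1.10) and 0.461 (0.194 to 1.02) without the control cell richest in astrocyte markers. In other cells they stood at 0.788 and 0.797. By class, Mt1 stood at 0.495 (0.427 to 0.573) in microglia, 0.608 (0.465 to 0.794) in mature oligodendrocytes and 0.876 (0.799 to 0.960) in astrocytes. Mt2 stood at 0.643, 0.690 and 0.787 in the same classes. Slc1a2, the main astrocyte glutamate transporter, had 24 and 8 UMIs (0.344, 0.134 to 0.792, against 1.08 in other cells), and 0.484 (0.179 to 1.20) without that control cell. Sdhb, a subunit of respiratory complex II, had 27 and 7 UMIs (0.268) and the selenoprotein Selenow 73 and 34 (0.481). Erh (0.225), Rprm (0.243), 0610012G03Rik (0.172) and the protease inhibitor Cst3 (0.568) were the others of the 10 lowest. In other cells Sdhb, Selenow, Erh, Rprm, 0610012G03Rik and Cst3 had ratios of 0.896, 0.717, 0.436, 0.565, 0.758 and 0.838.

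For the lists, 316 of all 720 genes were higher in the aged library. Matrix and proteoglycan genes had 6 measured, 5 of them higher, with a median log2 ratio of 0.52. Cspg5 had 30 UMIs in 17 control and 50 in 17 aged precursors, a ratio of 1.72 (1.07 to 2.80), and Vcan had 10 and 21 (2.17, 0.978 to 5.16). Other precursor genes had 17 measured, 12 higher, with a median of 0.15. Of these, 3 were past 2-fold where the background was 8.47%, Vcan with the factor Sox6 (8 and 18 UMIs, 2.32) and the retinoid-binding protein Rlbp1 (7 and 15, 2.21). All 3 intervals hold 1. Epn2, an endocytic adapter, had 28 and 47 UMIs (1.73, 1.06 to 2.87).

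The brakes on differentiation had a median log2 ratio of 0.52 over 5 genes in the aged library, with 4 higher and 0 past 2-fold. Hes5 stood at 1.83 (0.888 to 3.93) and Id2 at 1.81 (0.945 to 3.58). Committed precursor genes had a median of -0.21 over 6, and myelin genes of -0.20 over 5. Without the Fyn-rich cells these were 0.25 over 2 and 0.36 over 4. Tubb4a, with 17 and 5 UMIs, was the member past 2-fold (0.304, 0.0876 to 0.858). The aged library held 1 Fyn-rich cell against 2 in control. Astrocyte markers had a median of -1.48 over 3, glycolysis -0.19 over 6, dissociation stress -0.14 over 12, interferon and MHC class I genes 0.26 over 3 and cytoskeleton -0.12 over 17.

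**Figure D5:**
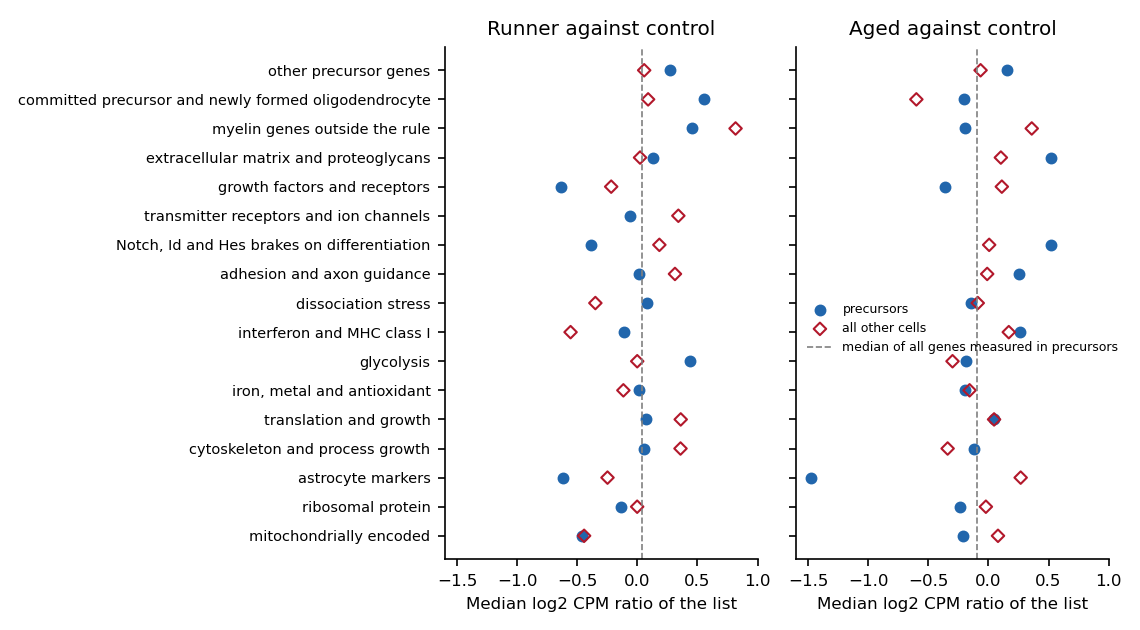
Median log2 CPM ratio of each list in precursors (filled circles) and in all other cells (open diamonds) for runner and aged against control, with a dashed line at the median of all genes measured in precursors (0.04 and -0.09). Committed and myelin lists lie right of the line in runner and left of it in aged; without Fyn-rich cells the myelin median is -0.01 in runner and both are above 0 in aged (0.25 and 0.36). Matrix and brake lists reach 0.52 in aged, and astrocyte markers lie left of the line in both.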

How the data were processed

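For each library the values deposited by the authors are unnormalized UMI counts of every gene in every barcode. Cell Ranger 2.1.1, Seurat 3.1.0 and the build GRCm38 are named in the submitters' processing notes, and their settings were not given in the sources used here. Genes seen in fewer than 4 barcodes in control, or 3 in the others, are not listed. Cells were chosen by the marker rule, with no doublet removal. The members and gene lists were chosen with earlier results of these data known. UMIs were summed over precursors per library and divided by their total (CPM). Shares have exact Clopper-Pearson intervals, differences of shares Newcombe intervals and CPM ratios exact conditional binomial intervals, all 95% and for counting error only. A gene with 20 UMIs in both libraries together was measured. For list medians 0.5 counts were added before log2. Named genes were the rule markers and measured members of the lists, the 10 highest and 10 lowest genes per comparison by the interval bound nearest 1 (mt- genes left out), and the 25 leading genes at a detection of 25%; some of these are not reported here. Gene positions come from GENCODE for GRCm38. Python 3.11.15, NumPy 2.4.6, pandas 2.3.3, SciPy 1.17.1 and scanpy 1.11.5 were used. The code was tested on simulated data.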

Additional observations from a re-analysis of the deposited data

How the results depend on the processing

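No paired analysis was possible because each condition was 1 library, and for the same reason no replicate could be left out. Without the mitochondrial limit the precursor shares were 1.35%, 1.62% and 1.59% of control, runner and aged barcodes, and with no mature gene allowed the runner share was 2.48%. With a minimum of 10 UMIs, 488 of 2440 genes in runner and 351 of 1789 in aged were past 2-fold. Leaving out cells with 3 or more markers of another class (7, 9 and 4 cells) left 57 of 710 in runner, where fewer genes were measured. The other counts stayed within 1.5 times. Median-ratio size factors moved the share of higher genes among those past 2-fold from 62.6% to 53.4% in runner, and weighting each cell the same to 52.7%. In aged this share of 39.3% was 51.6% with size factors, 49.3% with 10 UMIs and 29.2% after Scrublet, which called 2, 6 and 2 cells (0.389%, 0.619% and 0.509%), 1 of them an aged precursor. Of the list medians, 2 turned in runner. Myelin genes went to -0.0100 without Fyn-rich cells. The list of brakes on differentiation went to 0.34 without cells holding other markers, and for this turn the cause was not tested. Over all lists and alternatives, another 5 medians in runner and 17 in aged moved by more than the counting error of the summed list, among them the aged committed and myelin lists, to 0.25 and 0.36 without Fyn-rich cells and -0.87 and -0.61 after Scrublet. Leaving out Fyn-rich cells, leaving out the control cell richest in astrocyte markers, and CPM without mt- genes were chosen after seeing the data. With 21 to 36 cells per library, a gene needs about 20 UMIs to be measured, which left out most of those listed.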
